A study of Mus musculus with 4 samples.

Results

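The uninjured kidney of 1 mouse overexpressing human KLF6 was set against that of 1 control mouse, cluster by cluster, in single nucleus RNA sequencing of kidney cortex. The hKLF6OE mouse carried CAG-rtTA and TRE-hKLF6, so that the human gene is switched on by doxycycline under a promoter active in most cell types, and the control mouse carried TRE-hKLF6 alone. Both were male, of mixed strain, and received no aristolochic acid I (AAI), and the study's methods state that mice were fed doxycycline. The members are the columns of these 2 mice in 21 of the 23 clusters of the deposited table, which are 42 of its 92 columns. The clusters left out, InjuredPT-A and InjuredPT-B (numbers 6 and 12), are the injured proximal tubule clusters of the study. The study also sequenced 1 control and 1 hKLF6OE mouse given AAI, a plant toxin that injures the proximal tubule, and these form a second pair that shares no animal with the first. With 1 mouse a group there is no spread between mice and no test, and the 21 clusters of a mouse are nuclei of 1 library and not replicates, so every value describes these animals alone.

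KLF6 is a zinc finger transcription factor of the Kruppel-like family that binds GC-rich promoter sequence and is induced early after kidney injury. The nephron runs from the podocytes of the glomerulus through the proximal tubule (PT, segments S1 to S3), the descending and ascending limbs of the loop of Henle (LH-DL, LH-AL), the distal convoluted tubule (DCT) and the connecting tubule (CNT) to the principal (CD/PC) and intercalated cells (IC) of the collecting duct. Mesangial cells (MC), endothelial cells (EC) and macrophages lie around it. In nuclei, most reads of long genes come from introns of unspliced RNA, while mature transcripts of the cytoplasm and mitochondria can be carried along with nuclei or in the droplet fluid.

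A level below is the mean over the nuclei of 1 cluster in 1 mouse, on a scale where all genes of a column sum to 10000. Differences are hKLF6OE minus control on the log2(level + 1) scale, which understates the change of low genes, and a gene entered a cluster when its larger level there was at least 0.5. The table holds means and neither counts nor numbers of nuclei for a cluster in a mouse, so no counting error is given. The share of genes at 0 in the control column ran from 15.1% in PT-S3-1 to 62.0% in LH-AL-3, and the interquartile range of the differences was 0.17 and 1.16 in these clusters. The median difference over genes lay between -0.09 and 0.02 in the 21 clusters. Of 70 markers in 14 lists, 65 were highest in a cluster carrying their own name; the names are those of the study's marker tables. Fibroblast and lymphocyte markers had no cluster of their own. The fibroblast genes Dcn and Pdgfra were highest in MC, at 1.45 and 1.42. The lymphocyte genes Skap1 and Bank1 were highest in the macrophage cluster, at 2.29 and 2.41, which also held the endothelial gene Meis2 at 16.5. LH-DL held the podocyte gene Wt1 at 3.86. Values given below for these cells are those of the clusters so named. The cluster named EC-1 went partly against its name: the endothelial gene Flt1 averaged 3.74 over both mice there against 22.6 in EC-2, while the proximal tubule phosphate transporter Slc34a1 averaged 39.8 there against 18.7 in EC-2. The cluster named DCT/CNT likewise held Slc34a1 at 35.2 beside the distal cotransporter Slc12a3 at 51.9.

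The targeted gene is human, and the transgene was not analysed here. Mouse Klf6, an 8.91 kb gene at chr13:5861482-5870394 on the plus strand of GRCm38, ranged in the control from 0.0573 in IC-A through a median of 0.287 to 1.27 in macrophages. In hKLF6OE it ranged from 0 in LH-AL-3 through a median of 0.179 to 0.939 in LH-DL. The levels of the mice overlapped and were low throughout. The hKLF6OE value was the lower in 16 clusters and the higher in 5. Of the 6 clusters where Klf6 entered, 3 were lower by 0.2 or more and 0 higher, the largest gap being LH-AL-3 at a difference of -0.66.

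Genes that differed alike in nearly all clusters were separated from those that differed in 1 segment. Of 19609 genes, 3536 entered in at least 15 clusters. A gene was called higher or lower in nearly all clusters when it lay past 0.2 in the same direction in at least 80% of the clusters it entered. This held for 89 genes higher in hKLF6OE, 2.52% of those entered, and for 27 genes lower, 0.764%. Most genes held no direction so widely: 24.3% lay past 0.2 in 1 direction in under 20% of their clusters and 52.5% in 20 to 40%. Just short of the 80% line lay Ndufb11 and Ndufc2, 2 subunits of respiratory complex I, each higher in 15 of 19 clusters. Just inside it lay Kcnj2, a potassium channel, lower in 12 of 15, and Lrp2, lower in 17 of 21. Genes shared across clusters made up 15.1% of all genes past 0.2 in PT-S3-1, where 8.24% of genes entered were higher and 10.5% lower, and 1.76% in LH-AL-3, where 39.7% were higher and 43.8% lower.

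The genes highest above control were a mixed set of metabolic, secreted and calcium-handling genes. Pck1, at chr2:173153048-173159273, encodes cytosolic phosphoenolpyruvate carboxykinase, the committed enzyme of gluconeogenesis. Its control levels ran from 0 in LH-DL through a median of 2.10 to 5.01 in PT-S3-1, and its hKLF6OE levels from 3.32 in IC-B-2 through 5.604 to 13.2 in PT-S1-S2-2. Every cluster was higher in hKLF6OE, by a median of 0.99 and by 0.74 to 2.72. In the S1-S2 clusters the levels were 3.63 against 11 and 4.12 against 13.2.

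Ttr encodes transthyretin, a carrier of thyroid hormone and of retinol-binding protein that is made chiefly in liver and choroid plexus. In the control it ran from 0.146 to 1.75 with a median of 0.337, and in hKLF6OE from 1.19 to 3.68 with a median of 1.69. The hKLF6OE levels were of the same order in tubule, endothelium, mesangium and macrophages, and the difference was past 0.2 in 20 of 21 clusters, macrophages being the exception at 0.16. S100g, the vitamin D-dependent calcium-binding protein calbindin-D9k, was highest in CNT in both mice, at 2.88 in the control and 6.58 in hKLF6OE. Over clusters its median was 1.11 against 2.95, and it was higher in 21 of 21. Klk1, tissue kallikrein, a protease released by the connecting tubule, likewise peaked in CNT at 6.70 against 12, with medians of 1.76 and 3.74 and a difference of 0.83.

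Spp1, or osteopontin, a secreted phosphoprotein of distal tubules and of injured tubule, had medians of 1.92 in the control and 3.91 in hKLF6OE. In LH-DL it stood at 10.7 against 61.9, a difference of 2.42, which was the widest of its 21 clusters. All 21 were higher in hKLF6OE. LH-DL is among the clusters with most genes at 0, 60.7% in the control and 42.5% in hKLF6OE.

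**Figure D1:**
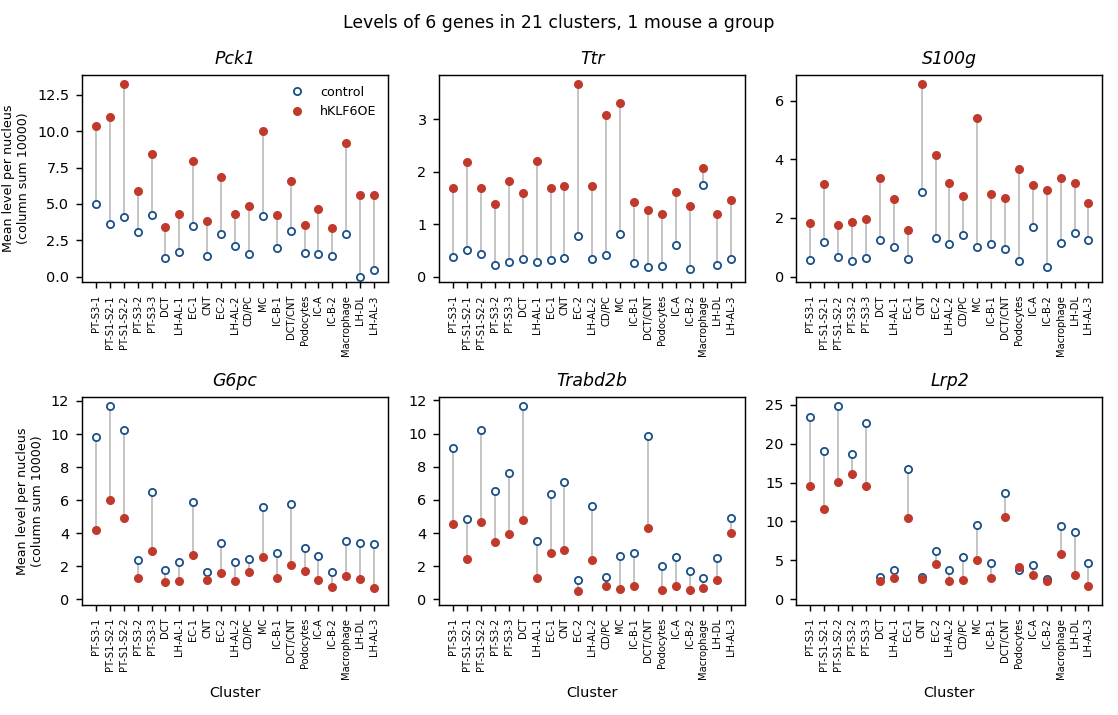
Mean level per nucleus (vertical axis, linear, column sum 10000) of 6 genes in 21 clusters (horizontal axis), with open circles for the control mouse and filled circles for the hKLF6OE mouse. Pck1, Ttr and S100g lie higher in hKLF6OE in all 21 clusters, and G6pc and Trabd2b lower in all 21, while Lrp2 is lower by 0.2 or more in 17.

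The next genes by size were abundant transcripts of iron storage, redox defence and translation. Fth1, the ferritin heavy chain, ran from 7.98 to 28.1 in the control and from 13.8 to 50.1 in hKLF6OE, and its differences of 0.57 to 0.96 were the narrowest band of these genes. Gpx3, the secreted glutathione peroxidase made in proximal tubule, had medians of 19.3 and 33.3. Prdx5, a peroxiredoxin, had medians of 2.21 and 3.83. Ferritin, ribosomal protein, Eef1a1 and ubiquitin genes have near-identical processed copies, so their levels are uncertain to that extent. Each of Fth1, Gpx3 and Prdx5 was past 0.2 in 21 of 21 clusters.

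Eef1a1, the elongation factor that brings tRNA to the ribosome, had medians of 3.98 in the control and 7.18 in hKLF6OE, and Ubb, a ubiquitin gene, 1.33 and 2.63. Fxyd2, the gamma subunit of the sodium pump, had medians of 5.88 and 9.52. Ubb was past 0.2 in 20 clusters and Fxyd2 in 19, with LH-AL-2, the control's highest cluster for Fxyd2, at -0.14. In hKLF6OE the mesangial cluster held the highest level of Fth1, Gpx3, Eef1a1, Fxyd2, Prdx5 and Ubb.

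**Figure D2:**
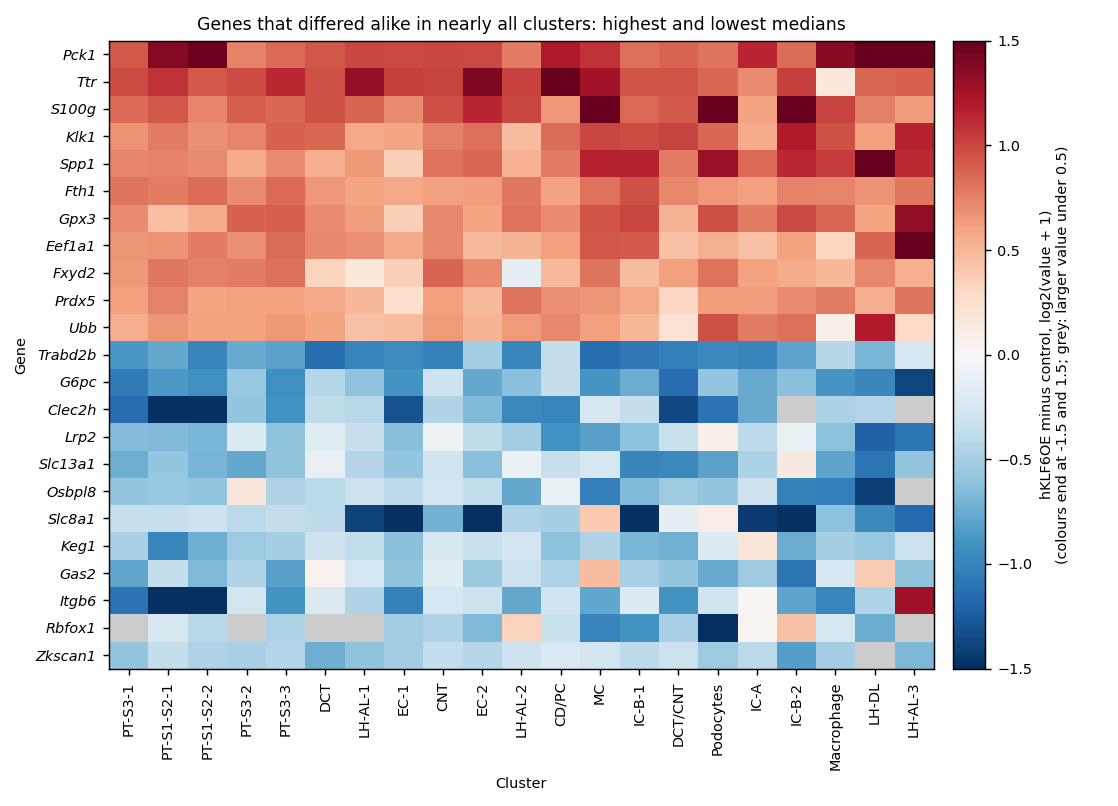
Difference between hKLF6OE and control (colour, log2(level + 1)) for 11 of the genes with the highest and the 12 with the lowest median among those alike in nearly all clusters (rows) in 21 clusters (columns). Pck1, S100g, Klk1, Spp1, Fth1, Gpx3, Eef1a1 and Prdx5 are past 0.2 in 21 of 21 clusters, and Trabd2b and G6pc past -0.2 in 21 of 21.

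Genes of the translation and respiration machinery made up much of the higher set. Of the cytosolic ribosomal proteins, 35 of 78 entered and 16, or 45.7%, were higher in nearly all clusters with 0 lower, against 2.52% of all genes. Rpl7 had medians of 0.578 and 1.34 and Rplp0 of 0.727 and 1.46, and the list's median difference was 0.34 against -0.04 for all genes. Of the nuclear genes of oxidative phosphorylation, 14 of 56 entered, or 25.0%, were higher and 0 lower. Cox8a, a subunit of cytochrome c oxidase, stood at medians of 3.01 and 4.80, and Ndufa4 at 1.42 and 2.60. Of the 13 mitochondrially encoded genes, 9 of 11 entered were higher, among them mt-Nd2 of complex I at a median difference of 0.59 and mt-Atp6 of the ATP synthase at medians of 32.3 and 46.2.

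Neither the ribosomal nor the respiratory difference belonged to 1 segment. The ribosomal list's median was above 0 in 21 of 21 clusters, from 0.25 in EC-1 to 0.61 in MC, and that of nuclear oxidative phosphorylation in 21 of 21, from 0.17 in LH-AL-3 to 0.49 in MC. The mitochondrially encoded list was above 0 in 20, with LH-AL-3 at -0.02. The mitochondrial share of all RNA was higher in hKLF6OE in 21 of 21 clusters, from 1.28 to 3.80% in the control and from 1.70 to 5.86% in hKLF6OE. The study's methods put all 4 libraries in the same technical batch.

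Stress lists gave fewer calls. Of 11 heat shock genes entered, Hspa8, the constitutive cytosolic chaperone, and Hspa5, the chaperone of the endoplasmic reticulum, were higher in nearly all clusters, at median differences of 0.54 and 0.34. These were 18.2% of those entered, against 2.52% of all genes. The heat shock list's median was above 0 in 21 of 21 clusters, from 0.05 in EC-1 to 0.48 in macrophages. Of 15 NRF2 targets and glutathione genes entered, only the ferritin genes Fth1 and Ftl1 were called, both higher, or 13.3%. Gclc, the catalytic subunit of glutathione synthesis, had the list's lowest median at -0.55 and was not called. Of 2 tubular injury markers entered, Spp1 was higher and the cytokine Il34 had a median of -0.39. The higher set held 41 genes in none of the lists, among them the redox enzymes Prdx1, Gpx4, Msrb1 and Gstm5, the translation factors Eef2 and Eif1, and Actb. These 7 were picked after their values were seen.

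What the higher genes shared most plainly was a short gene. Of the 89, 86 span under 30 kb, or 96.6%, against 27.8% of the 3504 entered genes with a span in GENCODE vM21, and their median span was 4.18 kb against 57.6 kb. The 3 longer ones were Cyb5a, a cytochrome b5 of 41.2 kb, Wdr89 of 38.9 kb and Chd9, a chromatin remodelling helicase of 226 kb. The 27 lower genes had a median span of 79.8 kb, with 13, or 48.1%, over 100 kb against 29.3% of all. Of the same 27, 10, or 37.0%, were under 30 kb, also above the 27.8% of all. Over every gene entered, those under 30 kb had a median difference of 0.05 and those over 100 kb of -0.07. The short genes lay above the long ones in 21 of 21 clusters, with cluster medians of 0.01 to 0.19 against -0.21 to -0.02.

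**Figure D3:**
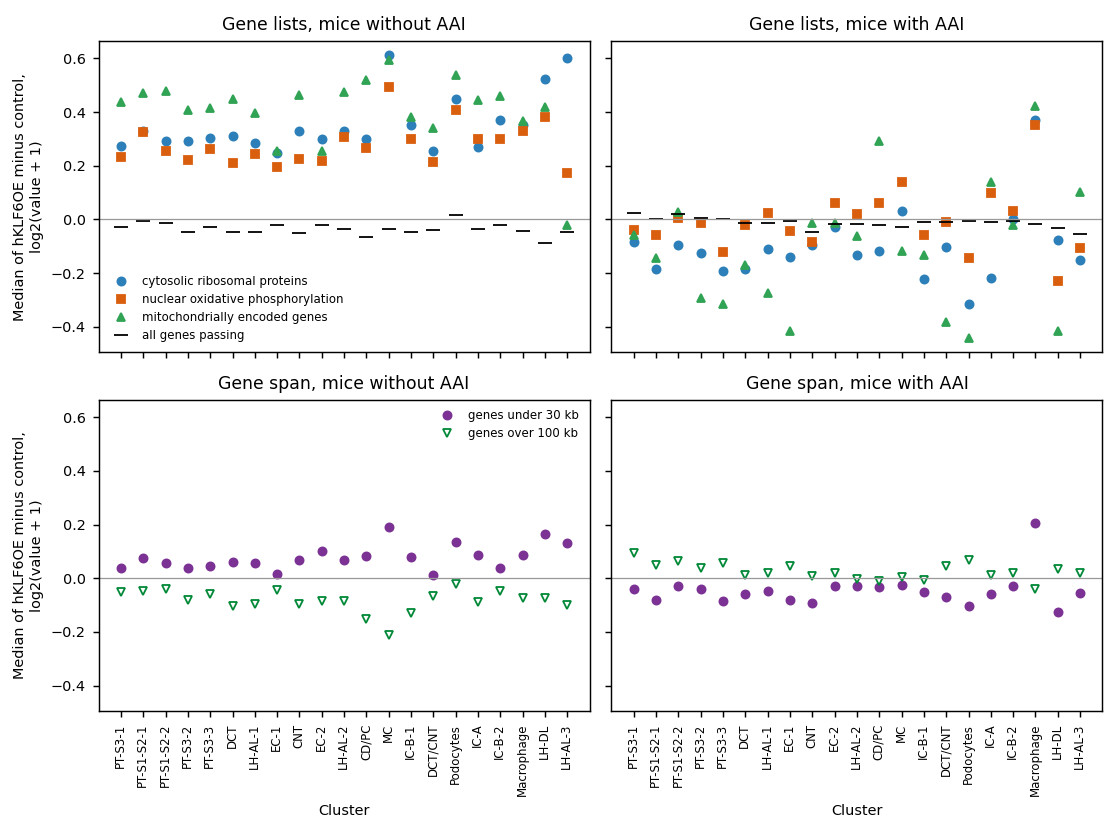
Median difference between hKLF6OE and control (vertical axis, log2(level + 1)) by cluster (horizontal axis), for 3 gene lists and all genes passing in the upper panels and for genes under 30 kb and over 100 kb in the lower panels, in mice without AAI (left) and with AAI (right). Without AAI the short genes lie above the long ones in 21 of 21 clusters, and with AAI in 1 of 21.

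The lower genes were longer by median span, more often proximal tubular and fewer. Trabd2b, a membrane metalloprotease that inactivates Wnt ligands, spans 208 kb at chr4:114406724-114615098. It ran in the control from 1.15 through a median of 4.87 to 11.6 in DCT and in hKLF6OE from 0.51 through 2.37 to 4.77 in DCT. It was lower in 21 of 21 clusters, by -0.25 to -1.13. G6pc encodes the catalytic subunit of glucose-6-phosphatase, the last step of glucose release, and lies at chr11:101367561-101377903. Its median was 3.36 in the control and 1.43 in hKLF6OE, it peaked in PT-S1-S2-1 at 11.7 against 6.0, and it was lower in 21 of 21. Pck1 and G6pc, enzymes of the same pathway, thus stood on opposite sides of control in every cluster.

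Clec2h, a C-type lectin-like membrane protein, was lower in all 19 clusters it entered, with 10.7 in PT-S1-S2-1 of the control and 2.24 there in hKLF6OE. Lrp2, or megalin, the endocytic receptor that retrieves filtered protein, had medians of 6.17 and 4.09 and was past -0.2 in 17 clusters. Podocytes, CNT, IC-B-2 and DCT lay within 0.2 of 0. Slc13a1, the sodium sulphate cotransporter of the proximal brush border, peaked in PT-S1-S2-2 at 19.8 against 11.8, and was lower in 18 clusters. Keg1, a kidney-expressed relative of glycine N-acyltransferase, peaked in PT-S3-1 at 88.8 against 63.2 and was lower in 20.

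Slc8a1, the sodium calcium exchanger of the distal nephron, stood at 366 in CNT of the control and 223 in hKLF6OE, and at 206 and 157 in DCT. In IC-A it was 27.2 against 9.48, and in EC-1 the difference was -1.62. It was lower in 18 clusters and higher in MC, at 0.39. Osbpl8, a lipid transfer protein of the endoplasmic reticulum, was lower in 18 of 20, with its highest level, in PT-S3-2, at 25.5 against 28.8. Itgb6, an epithelial integrin, was lower in 19 clusters, down to -1.55, and higher in LH-AL-3 at 1.28. Gas2, an actin-associated protein, was lower in 17, and the splicing regulator Rbfox1 in 13 of 16. Zkscan1, a zinc finger gene, was lower in 20 of 20 clusters, with medians of 1.55 and 0.755.

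Proximal tubule genes did not move as 1 group. Of the 37 of 38 transcripts of that list that entered, 4 were higher in nearly all clusters (among them Pck1, Napsa and Kap) and 4 lower (Lrp2, Slc13a1, Keg1 and Slc22a30), each 10.8%, and the list's median was -0.06. Napsa is an aspartic protease, Kap the androgen-regulated protein that is the most abundant of these transcripts, and Slc22a30 an organic anion transporter. The list's summed share in the 16 clusters outside the proximal tubule was 1.35 to 3.64% in the control and 1.48 to 4.54% in hKLF6OE, and it was the higher in hKLF6OE in 14 of 16. Without Kap it was the higher in 8 of 16. Within the 5 proximal tubule clusters it was higher in hKLF6OE in 1, and without Kap in 0. The part that carried-over proximal tubule RNA has in the shared differences was not tested.

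The promoters of Pck1, G6pc and Keg1 are shown as examples, picked after the values were seen, of the 7 genes past 0.2 on the same side of control in both pairs of mice. Each is the RefSeq window of GRCm38.p6 from 250 bases before to 50 after the gene's start, with capitals marking a match to 1 of the KLF-type motifs searched on both strands, CCACGCCC, GGGCGG or CCACACCC.
Pck1, chr2:173152823-173153122, plus strand: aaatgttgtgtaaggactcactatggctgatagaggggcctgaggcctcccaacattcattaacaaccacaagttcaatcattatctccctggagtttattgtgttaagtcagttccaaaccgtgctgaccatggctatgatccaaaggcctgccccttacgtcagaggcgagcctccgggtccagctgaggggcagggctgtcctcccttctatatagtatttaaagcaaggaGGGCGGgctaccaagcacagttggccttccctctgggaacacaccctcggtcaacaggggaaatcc
G6pc, chr11:101367466-101367765, plus strand: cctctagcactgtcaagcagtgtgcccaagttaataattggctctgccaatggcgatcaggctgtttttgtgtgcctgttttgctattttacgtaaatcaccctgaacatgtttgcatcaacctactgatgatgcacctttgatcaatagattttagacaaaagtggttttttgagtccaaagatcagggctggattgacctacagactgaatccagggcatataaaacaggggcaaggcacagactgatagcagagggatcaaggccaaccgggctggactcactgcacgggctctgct
Keg1, chr19:12695540-12695839, plus strand: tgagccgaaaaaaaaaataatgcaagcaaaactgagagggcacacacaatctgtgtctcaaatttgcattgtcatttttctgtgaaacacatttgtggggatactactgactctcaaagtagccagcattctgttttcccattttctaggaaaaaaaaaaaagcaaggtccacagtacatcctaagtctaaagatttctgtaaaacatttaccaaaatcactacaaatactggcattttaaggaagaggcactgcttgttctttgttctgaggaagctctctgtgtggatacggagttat
The Pck1 window holds 1 match, to GGGCGG, and the G6pc and Keg1 windows hold 0. A window was found for 58 of the 89 higher genes, 22 of the 27 lower genes and 2811 of the 3536 entered, and some genes have several. GGGCGG or its reverse was in 58.6% of the windows of higher genes, 28.6% of those of lower genes, 64.7% of those entered and 35.7% of all. CCACGCCC was in 11.43, 10.7, 9.32 and 5.33% in the same order, and CCACACCC in 0, 3.57, 2.86 and 3.56%. A match describes the letters and not binding.

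In all 20 lists were examined, and in 12 of them no member was called in nearly all clusters. For the circadian clock 10 genes entered, with the nuclear receptor Rora farthest from 0 at -0.28. For glucocorticoid-responsive genes 4 entered, with Fkbp5 at 0.24, and for PPAR targets and fatty acid oxidation 18, with Hsd17b4 of the peroxisome at 0.25. For branched-chain amino acid catabolism 18 entered, with Dld, a shared dehydrogenase subunit, at 0.24, and for p53 targets 4, with Mdm2, the ubiquitin ligase of p53, at -0.19. For cholesterol synthesis 2 entered (Hmgcs1 at -0.08), for interferon-stimulated genes 1 (Rnf213 at -0.06), for the integrated stress response 1 (Cth at 0.16) and for RNA polymerase II subunits 1 (Polr2a, its largest subunit, at 0.04). For sex-linked transcripts 3 entered, with Uty at -0.15. No immediate early or red cell gene entered. Among 6 Kruppel-like factors entered, Klf12, a repressor of the family, was lower, at medians of 4.96 and 3.61.

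Positions of the called genes were also compared. Outside the mitochondrial genome, 21 pairs of called genes lay within 1 Mb of each other, 0.237% of the 8860 such pairs among genes entered, beside 0.0930% called in both among pairs at any distance. All 21 were pairs of genes under 30 kb, for which the shares were 1.83 and 0.809%. Both genes were higher in 20. Of the called genes under 30 kb, 86 were higher, 9 of them mitochondrially encoded and so in none of these pairs, and 10 were lower. The densest stretch, on chromosome 10, holds Bsg, Gpx4, Atp5d, Rps15, Uqcr11 and Eef2. These genes alone made most of the 21 pairs, so the pairs are not separate observations. On chromosome 7 Klk1, Napsa, Ftl1 and Rpl18 lie within 1 Mb of the next. The pair with opposite directions was Kif12, lower, and Atp6v1g1, higher, on chromosome 4.

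The AAI-treated pair, compared by the same rule, gave another set. Of 3425 genes entered there, 13 were higher in hKLF6OE with AAI, 0.38%, and 21 lower, 0.613%. Only Pck1 and Spink1, a secreted trypsin inhibitor, carried the same call in both pairs. Pck1 had medians of 1.33 in the control and 2.58 in hKLF6OE with AAI and was past 0.2 in 21 of 21 clusters. Spink1 was higher in 18 of 21 clusters without AAI, at a median difference of 0.39, and in 19 of 21 with AAI, at 0.55.

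Of the 89 higher genes, 76 entered in at least 15 clusters of the AAI pair. Their median difference there was above 0 for 15 and below 0 for 61, or 80.3%, beside 49.0% below 0 for all 3203 genes entered in both pairs. Past 0.2 upward were 3 of the 76 (Pck1, S100g and Spink1), or 3.95%, beside 2.37% of all, and past it downward 24, or 31.6%, beside 5.21%. Fth1 went from 0.72 without AAI to -0.36 with it and Eef1a1 from 0.67 to -0.27. The ribosomal list's median was -0.15 in the AAI pair, that of nuclear oxidative phosphorylation -0.01 and that of mitochondrially encoded genes -0.07. The mitochondrial share was higher in hKLF6OE in 8 of 21 clusters with AAI.

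The span pattern turned with it. With AAI, entered genes under 30 kb had a median difference of -0.05 and those over 100 kb of 0.04, and short genes lay above long ones in 1 of 21 clusters, the macrophages. Ttr, which stood above control everywhere without AAI, was nearly absent from the hKLF6OE mouse with AAI, where its highest level in any cluster was 0.079.

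Of the 27 lower genes, 23 entered in the AAI pair, with 15 below 0. Past -0.2 were 4 (Trabd2b, G6pc, Keg1 and Aspa, an aspartoacylase), or 17.4%, beside 5.21% of all genes, and past 0.2 were also 4, beside 2.37%. Trabd2b lay at -0.44 with AAI, lower by 0.2 or more in 16 clusters, Keg1 at -0.33 and G6pc at -0.22. Slc8a1, at -0.50 without AAI, lay at 0.57 with it. Clec2h entered in 10 clusters of the AAI pair and was lower in 9 of them, at a median of -0.63.

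**Figure D4:**
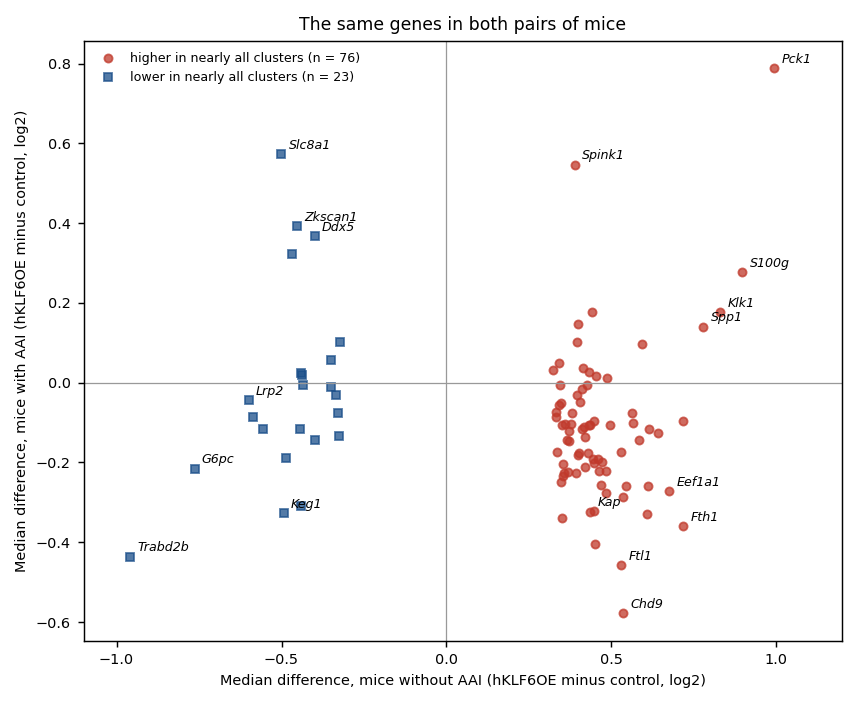
Median difference over clusters between hKLF6OE and control (log2(level + 1)) without AAI (horizontal axis) and with AAI (vertical axis) for the genes called in nearly all clusters without AAI that entered at least 15 clusters with AAI, 76 higher (circles) and 23 lower (squares). Most higher genes lie below 0 on the vertical axis, and Pck1, Spink1 and S100g lie above 0.2.

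Differences in 1 segment were sought with a stricter rule. A gene had to enter and lie past 0.5 in 1 direction in every cluster of a segment, and past 0.2 in that direction in at most 20% of the clusters outside. In the 5 segments of 2 or more clusters this gave 0 genes higher and 2 lower. The proximal tubule with its 5 clusters gave 0 of 3349, as did the distal convoluted and connecting tubule and the endothelial clusters in either direction. In the ascending limb the long noncoding transcript 9530026P05Rik was lower, 1 of 3534 or 0.0283%, at a mean of 4.25 in the control and 2.39 in hKLF6OE. In intercalated cells Sctr, the secretin receptor, was lower, 1 of 3654 or 0.0274%, at 1.93 against 0.839, and entered in 0 clusters elsewhere.

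The 5 segments of 1 cluster have no second cluster to agree, so their counts cannot be compared with those above. The descending limb and macrophages had control columns with 60.7 and 49.7% of genes at 0. The descending limb gave 717 higher and 670 lower (12.2 and 11.39% of genes entered), macrophages 443 and 489 (7.56 and 8.34%), mesangial cells 195 and 228 (3.57 and 4.17%), podocytes 162 and 107 (3.65 and 2.41%) and principal cells 46 and 78 (0.965 and 1.64%). In the descending limb Mecom, a zinc finger transcription factor, stood at 0.994 against 9.29, and the netrin receptor gene Unc5c at 8.17 against 0.325. In macrophages the copper pump gene Atp7a stood at 2.81 against 0.499, and Scaper at 0.0716 against 2.00. In mesangial cells the nucleotide hydrolase gene Samhd1 stood at 0.123 against 1.44 and the transcription activator gene Camta1 at 1.80 against 0.276.

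Podocytes led with Rab1a, a GTPase of vesicle transport, at 0.293 against 1.74, and Nap1l1, a histone chaperone, at 1.80 against 0.312. Principal cells led with the glycosyltransferase gene B4galnt3 at 0.555 against 1.93 and Mau2, a cohesin loader, at 1.47 against 0.415. The same genes were then read in the AAI pair. Of the 540 higher genes of the descending limb measured there, 34.6% were past 0.2 in the same direction there, beside 34.7% of all, and of its 378 lower genes 32.8% beside 36.6%. For macrophages the shares were 44.8 beside 40.4% and 41.4 beside 40.04%. For mesangial cells they were 35.0 beside 26.3% upward and 28.2 beside 29.0% downward, and for podocytes 31.3 beside 22.1% and 31.8 beside 24.5%. For principal cells they were 28.9 beside 21.4% and 26.2 beside 25.8%. Mecom lay at 1.19 in the AAI pair, and Unc5c, lower without AAI, at 1.00.

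A looser rule, added after the data were seen, asked for every cluster of a set of 2 or more past 0.5 and, where a gene entered at least 5 clusters outside, a median within 0.2 of 0 over them. It also took PT-S1-S2 and PT-S3 apart and set LH-AL-3 outside the ascending limb. Over 7 sets it found 11 genes higher and 24 lower, of which 7 and 19 were measured in at least 5 clusters outside.

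In the whole proximal tubule 2 genes were higher, 0.0597% of 3349. Kcnk5, an alkali-activated potassium channel of the proximal tubule, ran from 2.97 to 3.78 in the 5 control clusters and from 6.24 to 6.98 in hKLF6OE. With AAI it was past 0.2 in 5 of 5, at a mean of 4.48 against 5.88, beside 1.34% of all genes past 0.2 upward in all 5. Fkbp5, a co-chaperone of steroid receptors, ran from 0.954 to 2.17 in the control and from 1.80 to 7.0 in hKLF6OE, with DCT at 2.86 against 2.85. Its means with AAI were 2.97 and 2.96. Neither was confined to the proximal tubule. Kcnk5 was past 0.2 upward in 11 of the 17 clusters it entered and Fkbp5 in 11 of 21, with 6 of these outside the proximal tubule for each. The largest outside were EC-1 and DCT/CNT, where Kcnk5 stood at 2.53 against 4.68 and 2.13 against 4.81.

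In PT-S1-S2 2 genes were higher and 5 lower, 0.0527 and 0.132% of 3793. Dnajc13, an endosomal co-chaperone, averaged 2.81 against 5.69, and in the AAI pair 3.45 against 5.51, past 0.2 in both clusters, beside 4.89% of all genes. Nav2, a cytoskeletal neuron navigator, averaged 1.74 against 3.00. Over all clusters entered, Dnajc13 was past 0.2 upward in 10 of 21, the most in macrophages at 0.83, and Nav2 in 7 of 20. The lower genes were Abcc4, an efflux pump for organic anions, at 4.57 against 2.36, Gab1, an adaptor of growth factor receptors, at 2.64 against 1.45, Vdr, the vitamin D receptor, at 3.90 against 2.34, Fam163a and Cyp2d12. Of these, Abcc4 was past -0.2 in 6 of the 17 clusters it entered, Gab1 in 10 of 21 and Vdr in 9 of 21. Fam163a and Cyp2d12 were lower in every cluster they entered, 6 and 5, and not in S1-S2 alone. Of the 4 measured in both S1-S2 clusters with AAI, Cyp2d12 was past -0.2 in both, at 1.40 against 0.174, beside 6.80% of all genes. In PT-S3 Ehhadh, the bifunctional enzyme of peroxisomal fatty acid oxidation, was lower, 1 of 3580 or 0.0279%, from 9.0 to 14 in the control and from 4.63 to 5.87 in hKLF6OE, and with AAI at 6.37 against 2.27. It was past -0.2 in 12 of 21 clusters, 9 of them outside PT-S3, among them EC-1 at 6.09 against 3.17.

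The ascending limb without LH-AL-3 gave 7 genes higher and 12 lower, 0.176 and 0.302% of 3967. The 7 sets ask for agreement of different numbers of clusters, so their counts are not compared. Egf, epidermal growth factor, a secreted product of this limb, stood at 117 and 164 in LH-AL-1 and LH-AL-2 of the control and at 60.4 and 104 in hKLF6OE, while in DCT it was higher in hKLF6OE, at 50.7 against 67.2. Wnk1, a kinase that governs sodium chloride cotransport, averaged 17.6 against 6.63. Ranbp3l, a nuclear export factor, averaged 2.75 against 9.24, and Slc38a2, an amino acid transporter, 1.09 against 2.16. Over all clusters entered, Ranbp3l was past 0.2 upward in 11 of 21 and Slc38a2 in 9 of 17. Wnk1 was past -0.2 in 9 of 21 and Egf in 7 of 21. LH-AL-3, the ascending limb cluster set outside, did not always go with the other clusters of the limb. Egf was higher there, at 0.59, and Ranbp3l lower, at -0.92. Pde10a and Sfrp1, both lower in this set, were lower in LH-AL-3 too, at -1.99 and -1.09. Sgcz, a sarcoglycan, averaged 0.200 against 10.7. It entered in 4 clusters elsewhere and was higher in all 6 it entered, with a median of 1.06 outside, so its difference was not that of the ascending limb alone. In the AAI pair 0 of the 4 higher genes and 0 of the 10 lower genes measured in both clusters were past 0.2 in the same direction, beside 3.103 and 4.42% of all genes. Col5a2, a collagen gene lower in this set, did not enter both clusters there and had a median of -1.03. Without AAI it was lower in all 6 clusters it entered, with a median of -0.99 over the 4 outside, and so not in this limb alone. With AAI Egf averaged 112 against 116 and Wnk1 10.4 against 11.41.

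Distal segments gave few. Tdrd3, a scaffold of RNA granules, was lower in DCT, CNT and DCT/CNT, at 4.89 against 2.74, and was 1 of 3370 genes or 0.0297%. It was past -0.2 in 8 of 21 clusters. In intercalated cells 5 genes were lower, 0.137% of 3654, among them Slc12a3, the thiazide-sensitive cotransporter of the distal convoluted tubule, at 5.55 against 1.13 in IC-B-1 and 11 against 3.82 in IC-A. In DCT itself Slc12a3 stood at 176 against 177. Over all clusters Slc12a3 was past -0.2 in 10 of 21 and past 0.2 upward in 2, so it was not lower in intercalated cells alone. Its level in intercalated clusters with AAI averaged 5.36 against 3.97, but the median difference over these clusters was 0.12. Of the 4 lower genes of this set measured with AAI, 0 were past -0.2 in every intercalated cluster, beside 2.96% of all genes. Endothelial clusters gave 0 genes in either direction.

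**Figure D5:**
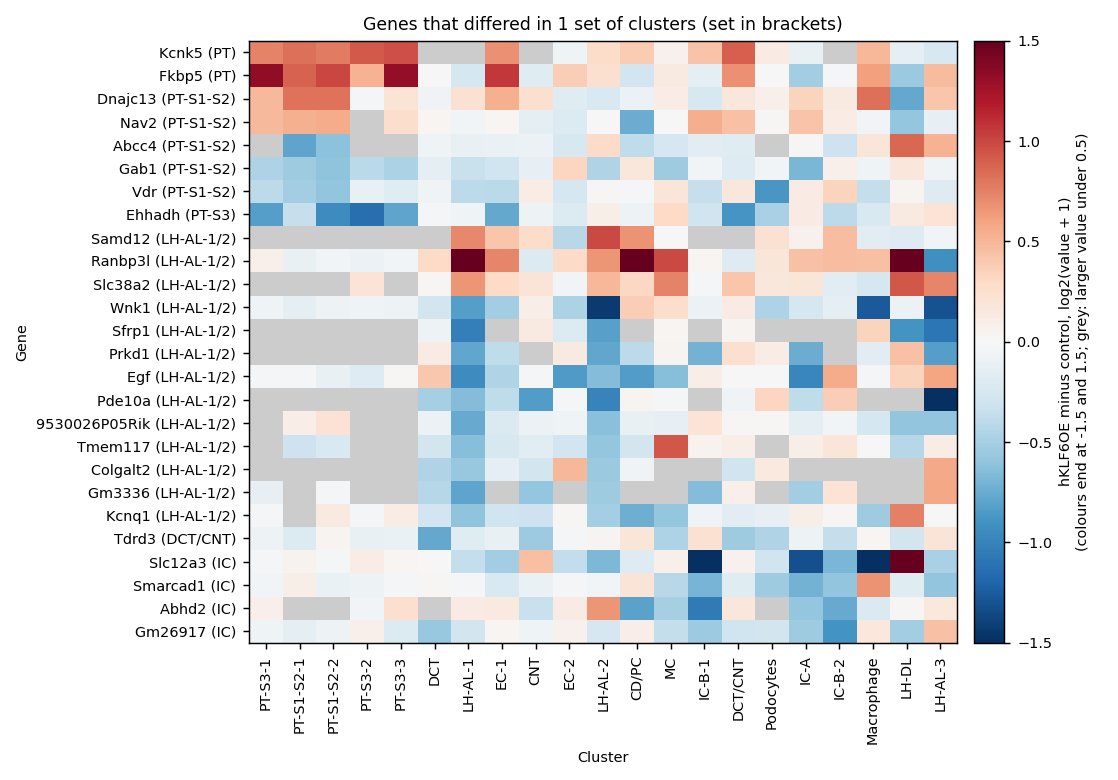
Difference between hKLF6OE and control (colour, log2(level + 1)) for genes of the looser rule measured in at least 5 clusters outside their set (rows, with the set in brackets) in 21 clusters (columns), grey where the gene did not enter. Kcnk5 and Fkbp5 are past 0.5 in all 5 proximal tubule clusters and in EC-1 and DCT/CNT, and Fkbp5 also in macrophages.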

How the data were processed

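Single nucleus RNA sequencing of kidney cortex from 4 mice, 1 for each of control, control with AAI, hKLF6OE and hKLF6OE with AAI, was analysed as deposited. Per the submitters' notes and methods, Cell Ranger with a pre-mRNA version of mm10 gave the counts, and Seurat the clusters. Numbers of nuclei per cluster and mouse, and depth per library, were not used here. No removal of doublets is described for these libraries in the sources used here, and none can be made on cluster means. The deposited signal is the mean of normalized expression over the nuclei of 1 cluster in 1 mouse, and each column sums to 10000.

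Of 19632 rows, 23 with date-like names were left out. Cluster names follow the order of the marker sheets in the study's supplement. Differences were taken on log2(signal + 1) where the larger value was at least 0.5, with a threshold of 0.2, and 0.5 within a segment. Genes named are Klf6, the 12 largest medians in each direction, the leading genes of each segment, up to 3 called members a list and direction (otherwise the member farthest from 0), and called genes within 1 Mb of each other. Of these genes, 1 that the rule names is not reported here. Genes outside this rule were picked with their values in view. The members and lists were chosen with earlier results of these data known. No test was run, since each group is 1 mouse. Gene spans came from GENCODE vM21 and promoters from RefSeq. The rules were tested on simulated data. The study also compared uninjured hKLF6OE and control mice in its normal proximal tubule clusters. The results of that comparison were not used here. Python 3.11.15, numpy 2.4.6, pandas 2.3.3 and matplotlib 3.10.9 were used.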

Additional observations from a re-analysis of the deposited data

Results flagged for a closer look

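Of the genes alike in nearly all clusters, 5 carried the opposite call in the AAI-treated pair, which shares no mouse with the uninjured pair. With 1 mouse a group the difference between the pairs was not tested. Kap, the androgen-regulated protein of proximal tubule, lay at a median of 0.44 without AAI and -0.32 with it. Ftl1, the ferritin light chain, lay at 0.53 and -0.46. Chd9, a chromatin remodelling helicase and the longest of the higher genes, lay at 0.54 and -0.58. Zkscan1, a zinc finger gene, lay at -0.45 and 0.39. Ddx5, an RNA helicase of splicing and microRNA processing, lay at -0.40 and 0.37.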

How the results depend on the processing

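No paired analysis was possible because each group is 1 mouse and the labels give no shared replicate numbers, and no replicate could be left out. The count of genes higher in nearly all clusters was 89 and that of genes lower in nearly all clusters 27. They were 172 and 63 with a pseudocount of 0.1, 182 and 113 with a threshold of 0.1, 10 and 2 with a threshold of 0.5, and 51 and 10 when 90% of clusters were asked for. With a larger value of at least 2 the higher count was 39, and without the 5 clusters with most genes at 0 the lower count was 45. Of the 118 genes then higher, 88 were among the 89, and 96.6% of them span under 30 kb. Centring each cluster on its median moved the split to 119 higher and 19 lower. The count of genes higher in 1 segment was 1563 and that of genes lower in 1 segment 1574. They numbered 318 and 438 with a larger value of at least 2, 258 and 298 with thresholds of 0.5 and 1, 982 and 969 with at most 10% of clusters outside, and 339 and 487 without the 5 clusters. The lower count was 2516 with no filter, and the higher count 2345 with thresholds of 0.1 and 0.25. Over segments of 2 or more clusters they numbered 0 and 2, and by the looser rule added after the data were seen 11 and 24. Of 1150 alternative values of named genes and lists, 83 moved by more than the spread over clusters or list members. None reversed a reported value past 0.2, but with a larger value of at least 2 Polr2a lay at -0.47 (reported 0.04) and the list median of NRF2 targets and glutathione at 0.53 (reported -0.03). The cause of these changes was not tested. Without counting errors, little can be said of the sparse clusters.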

Other observations

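Of the 34 genes called in nearly all clusters in the AAI-treated pair, 8 had a median past 0.2 in the same direction in the uninjured pair, 2 of them called there. These were 3 of the 13 higher genes, 23.1% beside 5.99% of all genes entered with AAI, and 5 of the 21 lower genes, 23.8% beside 7.83%. The noncoding transcript 2610035D17Rik entered in 2 clusters without AAI at a median of 0.82, and lay at 0.53 with AAI. Rora, a nuclear receptor of the circadian clock, lay at -0.28 without AAI, lower in 14 of 21 clusters, and at -0.36 with it, lower in 17. Slc17a3, a urate and organic anion transporter of the proximal tubule, lay at -0.28 and -0.49. Ehhadh lay at -0.23 and -0.49 over all clusters, and Igfbp5, an insulin-like growth factor binding protein, at -0.20 and -0.34. Cyp2a5, a cytochrome P450, entered in 2 clusters without AAI, lower in both at a median of -0.84, and in 19 with AAI, lower in all of them at -0.74. These were chosen after their values were seen, and no test was possible.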
